A study of Mus musculus with 16 samples.

Results

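The genes described here encode the nuclear subunits of the mitochondrial respiratory chain and of ATP synthase, measured in the hippocampus of senescence-accelerated mice. They were taken by name: every non-control probe whose RefSeq transcript belongs to a symbol that starts with Ndufa, Ndufb, Ndufc, Ndufs, Ndufv, Uqcr, Cox4i, Cox5, Cox6, Cox7, Cox8 or Atp5, together with Sdha, Sdhb, Sdhc, Sdhd and Cyc1, and without the Ndufaf assembly factors. This gave 84 of 17178 named genes, on 104 of 41174 probes. Of these, 82 entered the tests, among 13459 genes tested: 36 of complex I, 4 of complex II, 9 of complex III, 16 of complex IV and 17 of ATP synthase (complex V). Complexes were assigned by symbol, so Ndufa4, now assigned to complex IV, is counted in complex I throughout. The rule uses names alone, but it was set with earlier results of these data known.

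The arrays compared male mice of SAM/P-8, a line that ages early, and SAM/R-1, a line that ages normally. Both lines came from the AKR/J background. Mice entered the study at 8 weeks of age and ate, for 8 weeks, either the rodent diet CE-2 alone (control) or CE-2 containing 0.1% coral calcium hydride (CCH), a coral-derived calcium preparation loaded with hydrogen. Each of the 4 groups (SAM/P-8 control, SAM/P-8 CCH, SAM/R-1 control, SAM/R-1 CCH) has 4 arrays of hippocampal RNA, so the design asks whether the lines differ on each diet, whether the diet moves the genes within each line, and whether these diet effects differ. The labels do not say whether replicates were separate mice, so each p-value reflects the spread among these arrays alone, which may be technical. Every group had a slide to itself, and a slide's effect and a group's cannot be told apart here.

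Complexes I to IV pass electrons from NADH and succinate to oxygen and, at complexes I, III and IV, pump protons across the inner mitochondrial membrane. ATP synthase lets the protons back and makes ATP. In the hippocampus this supply is used mostly to restore ion gradients after synaptic and action potentials. The mitochondrial genome encodes a few core subunits, and all genes described here lie in the nucleus.

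A level is the log2 processed signal of a gene's brightest probe minus the 75th percentile of its array, and a difference is between group means of levels (± SE from the limma fit, n = 4 and 4 arrays). A call means a Benjamini-Hochberg adjusted p under 0.05 over all 29009 probes kept. Between 66.7% and 76.8% of the non-control spots of an array were well above background. For all 82 tested members the signal cleared background on each of the 16 arrays, so no value below is a bound. The remaining members, Cox4i2 and Cox8c, the lung and testis forms of their subunits, were well above background on 0 of 16 arrays.

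RNA markers of other cells and regions differed among the arrays. SAM/P-8 CCH replicate 4 carried a mean centred striatum marker level of 3.92 (9 of 10 markers tested), and the SAM/P-8 CCH group ranged from -0.67 to 3.92 against -0.77 to -0.03 in SAM/P-8 control. Markers of pyramidal and granule neurons, the main hippocampal cells, ranged from -0.44 to 0.17 in SAM/P-8 CCH and from -0.08 to 0.29 in SAM/P-8 control (13 of 14 tested). On CCH in SAM/P-8 the median difference of these markers was -0.27, with 11 of 13 below 0, 8 at an unadjusted p under 0.05 and 0 called in limma. On CCH in SAM/R-1 it was -0.13, with 11 of 13 below 0, 1 unadjusted and 0 called. For the CCH effect averaged over the lines it was -0.22, with 10 of 13 below 0, 7 unadjusted and 2 called lower. Red blood cell markers (3 of 6 tested) ranged from -0.21 to 2.45 in SAM/P-8 control, where replicates 1 and 2 stood highest at 1.54 and 2.45, and from -0.50 to 0.25 in SAM/P-8 CCH. Their median difference on CCH in SAM/P-8 was -1.10, with 3 of 3 below 0, 3 at an unadjusted p under 0.05 and 0 called. Choroid plexus markers ranged from -3.02 to 1.70 over the 16 arrays (6 of 8 tested). Endothelial and pericyte markers (10 of 10 tested) were higher in SAM/P-8, at 0.05 to 0.49 on the control diet against -0.52 to -0.23 in SAM/R-1. In limma 9 of these 10 were called higher in SAM/P-8 on the control diet and 4 on CCH. Of 10 microglia markers 1 and 4 were called higher, and of 10 meninges and fibroblast markers 1 and 2. No endothelial, pericyte, microglia, meninges or fibroblast marker was called lower in SAM/P-8 on either diet. Oligodendrocyte markers reached 0.60 on SAM/P-8 CCH replicate 4 against 0.18 or less on the other arrays. Their part in the results below was not tested, and the counts of calls that use SAM/P-8 on CCH are given with and without replicate 4.

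To show how alike or unlike the promoters of members that moved together are, they are printed for 4 of the 6 members that were called lower on CCH in SAM/P-8. Ndufa3, Ndufa4 and Ndufa5 are accessory subunits named for complex I (Ndufa4 is now assigned to complex IV), and Uqcr11 is the smallest subunit of complex III. The windows run from 250 bases before to 50 bases after the RefSeq start on GRCm38.p6, 5′ to 3′ on the gene's strand, with capitals marking any match to CCGGAAG (an ETS motif, bound by GABP), AAGATGGC (bound by YY1) or TGCGCA (a half-site of NRF1), on either strand. Ndufa3 lies at chr7:3617123-3617422 (+), Ndufa4 at chr6:11907401-11907700 (-), Ndufa5 at chr6:24527477-24527776 (-) and Uqcr11 at chr10:80406772-80407071 (-).
Ndufa3: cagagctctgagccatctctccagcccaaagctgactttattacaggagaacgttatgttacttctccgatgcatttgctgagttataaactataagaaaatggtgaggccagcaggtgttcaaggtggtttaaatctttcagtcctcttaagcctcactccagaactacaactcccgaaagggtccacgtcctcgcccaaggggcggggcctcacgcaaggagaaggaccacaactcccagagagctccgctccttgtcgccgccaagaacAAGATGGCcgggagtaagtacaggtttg
Ndufa4: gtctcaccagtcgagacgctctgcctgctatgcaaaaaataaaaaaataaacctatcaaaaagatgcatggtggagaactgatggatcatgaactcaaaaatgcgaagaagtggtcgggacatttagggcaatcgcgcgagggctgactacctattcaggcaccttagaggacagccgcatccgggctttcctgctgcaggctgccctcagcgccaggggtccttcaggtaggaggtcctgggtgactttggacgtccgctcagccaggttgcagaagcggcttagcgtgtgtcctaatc
Ndufa5: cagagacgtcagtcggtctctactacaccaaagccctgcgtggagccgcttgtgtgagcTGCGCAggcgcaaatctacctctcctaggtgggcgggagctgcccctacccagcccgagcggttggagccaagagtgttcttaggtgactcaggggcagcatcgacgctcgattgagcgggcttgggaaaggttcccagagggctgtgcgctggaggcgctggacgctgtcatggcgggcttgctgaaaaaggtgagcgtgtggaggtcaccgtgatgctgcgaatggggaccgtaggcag
Uqcr11: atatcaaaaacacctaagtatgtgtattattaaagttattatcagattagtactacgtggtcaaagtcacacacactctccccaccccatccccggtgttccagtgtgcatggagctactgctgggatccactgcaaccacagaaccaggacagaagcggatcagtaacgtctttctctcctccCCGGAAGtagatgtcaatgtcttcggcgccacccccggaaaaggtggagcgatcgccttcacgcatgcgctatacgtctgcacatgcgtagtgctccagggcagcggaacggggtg

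The 4 promoters share none of these motifs. Ndufa3 holds AAGATGGC 22 bases after the start, Uqcr11 holds CCGGAAG 66 bases before it, Ndufa5 holds the half-site TGCGCA 191 bases before it, and Ndufa4 holds no match. The RefSeq table matched 68 of the 84 members, with 73 windows, against 21263 windows of protein-coding genes. CCGGAAG stood in 23.3% of the members' windows and 11.6% of all windows, and AAGATGGC in 13.7% and 3.05%. TGCGCA stood in 26.0% and 9.74%. None of these motifs holds another within it. The GC box GGGCGG (41.1% and 46.2%) and the TATA box TATAAA (12.3% and 12.6%) were not more frequent among the members. The median GC content was 57.7% in the members' windows and 56.3% in all windows. A match is a description of letters, not a bound site.

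On the CCH diet, SAM/P-8 hippocampus had slightly lower mRNA of nearly every subunit. The difference was below 0 for 80 of the 82 members, with a median of -0.13, a change of -8.89%. It was below 0 for 36 of 36 members of complex I, 3 of 4 of complex II, 9 of 9 of complex III, 15 of 16 of complex IV and 17 of 17 of ATP synthase. In limma 6 members passed the test, all lower: 4 accessory subunits named for complex I (Ndufa2, Ndufa5, Ndufa3 and Ndufa4), Uqcr11 of complex III and Cox4i1, the ubiquitous isoform of the regulatory subunit IV of cytochrome c oxidase. No member of complex II or ATP synthase passed. In bulk tissue, fewer cells of a type and less RNA per cell cannot be told apart.

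Read against the background, 7.32% of members were called and 0.788% of all genes were (lower: 7.32% and 0.372%; higher: 0 members and 0.416%). Unadjusted p was under 0.05 for 62.2% of members and 18.5% of all genes. The 4 CCH arrays lay below all 4 control arrays for 38 members, or 46.3%, against 6.35% of all genes, and above them for 0 members, against 3.32%. A difference below 0 was found for 97.6% of members and 57.1% of all genes.

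Ndufa2 is an accessory subunit of the NADH-oxidising arm of complex I with a thioredoxin-like fold. Its levels were 4.50, 4.63, 4.57 and 4.47 in SAM/P-8 control. They were 4.25, 4.27, 4.22 and 4.29 in SAM/P-8 CCH. The groups were clearly apart, and the 4 CCH arrays lay close together. Ndufa2 fell by 0.28 ± 0.04, a change of -17.9% (adjusted p = 0.0109).

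Ndufa5, another accessory subunit of that matrix arm, had levels of 6.26, 6.35, 6.31 and 6.27 in SAM/P-8 control and 6.05, 6.08, 6.05 and 6.02 in SAM/P-8 CCH. Again the groups did not overlap, and each was tighter than the gap between the group means. Ndufa5 fell by 0.25 ± 0.04, a change of -15.7% (adjusted p = 0.0143).

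Cox4i1 levels were 6.54, 6.67, 6.62 and 6.60 in SAM/P-8 control and 6.40, 6.38, 6.37 and 6.45 in SAM/P-8 CCH. The highest CCH array was replicate 4 and the lowest control array was replicate 1, and they did not meet. Cox4i1 fell by 0.21 ± 0.04, a change of -13.4% (adjusted p = 0.030).

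Uqcr11 levels were 5.45, 5.50, 5.50 and 5.42 in SAM/P-8 control and 5.27, 5.26, 5.30 and 5.30 in SAM/P-8 CCH. It fell by 0.19 ± 0.04, a change of -12.2% (adjusted p = 0.0429), with no overlap. Ndufa4 levels were 5.04, 5.18, 5.07 and 5.05 in control and 4.85, 4.89, 4.90 and 4.85 in CCH, apart in all arrays, and it fell by 0.21 ± 0.04 (adjusted p = 0.0407). Ndufa3 levels were 2.97, 3.12, 3.04 and 2.97 in control and 2.86, 2.80, 2.81 and 2.76 in CCH, and it fell by 0.22 ± 0.05 (adjusted p = 0.0448). In both Ndufa4 and Ndufa3 the highest control array was replicate 2.

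**Figure D1:**
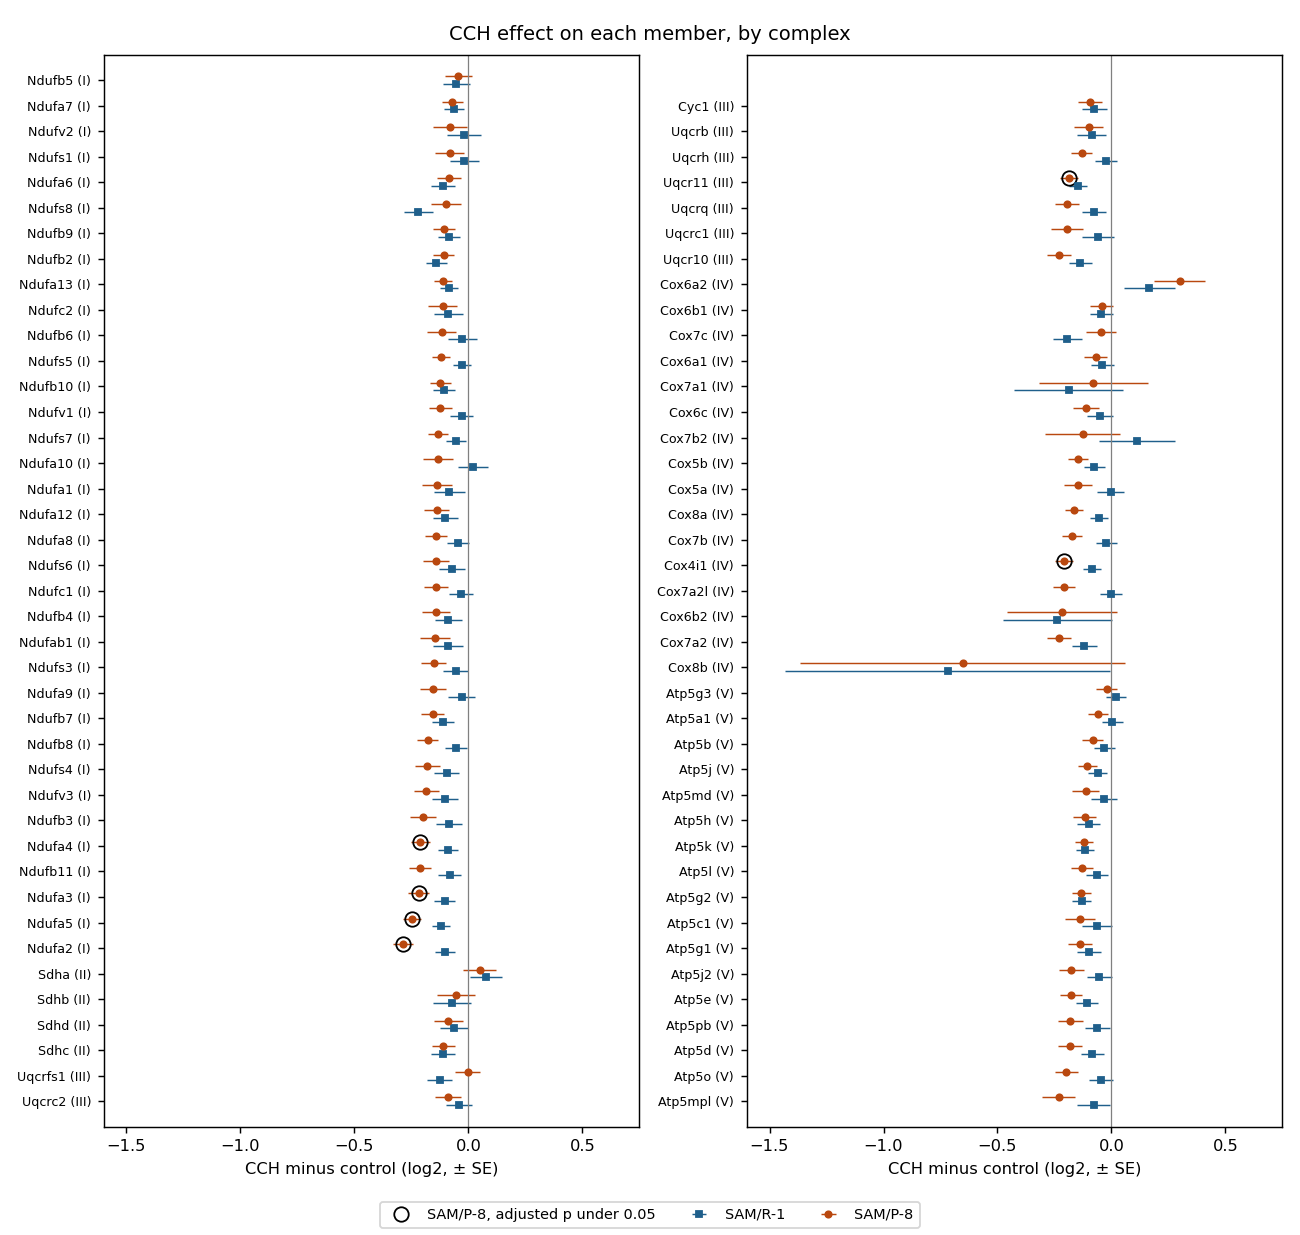
The CCH effect on 81 of the 82 tested members (log2, CCH minus control, ± SE, n = 4 and 4 arrays) in SAM/P-8 (circles) and SAM/R-1 (squares), grouped by complex (number in brackets after the symbol). Nearly all points lie left of 0. Open rings mark the 6 members with an adjusted p under 0.05 in SAM/P-8.

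Several members just missed the threshold. Among them were Uqcr10 of complex III (-0.23 ± 0.05, adjusted p = 0.0548) and Cox7a2, the form of subunit VIIa made in most tissues (-0.23 ± 0.05, 0.0589). Ndufb11 of the membrane arm of complex I (-0.21 ± 0.05, 0.0633) and Cox8a (-0.17 ± 0.04, 0.0649) were close as well. In ATP synthase the smallest p belonged to Atp5o, the stalk subunit known as OSCP, at -0.20 ± 0.05 (adjusted p = 0.0790). In complex II it belonged to Sdhc, a membrane anchor, at -0.11 ± 0.05 (adjusted p = 0.256). All 4 CCH arrays lay below all 4 control arrays for 17 of 36 members of complex I, 0 of 4 of complex II, 3 of 9 of complex III, 7 of 16 of complex IV and 11 of 17 of ATP synthase.

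Catalytic and core subunits differed by varying amounts, and none of those named here passed. Atp5a1 and Atp5b, the catalytic hexamer of ATP synthase, differed by -0.06 ± 0.04 and -0.08 ± 0.05. The second probe of Atp5a1 also gave -0.06, while the dimmer probes of Atp5b lay the other way at 0.03 and 0.04, not called. Ndufs1 and Ndufv2, iron-sulfur core subunits of complex I, differed by -0.08 ± 0.06 and -0.08 ± 0.07, and the core subunits Ndufs3, Ndufs7 and Ndufv1 by -0.15 ± 0.06, -0.13 ± 0.04 and -0.12 ± 0.05. In complex III, Uqcrfs1, the Rieske iron-sulfur protein, differed by -0.00 ± 0.05 and the core protein Uqcrc1 by -0.20 ± 0.07.

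The only members above 0 were Cox6a2 (0.30 ± 0.11, adjusted p = 0.174), the muscle form of subunit VIa, and Sdha (0.05 ± 0.07, 0.743), the flavoprotein of complex II. Cox6a2 levels were -0.79, -0.72, -0.93 and -0.61 in SAM/P-8 control and -0.27, -0.77, -0.39 and -0.43 in SAM/P-8 CCH. The second CCH array lay among the controls, so the groups overlapped. Its ubiquitous counterpart Cox6a1 differed by -0.07 ± 0.05. The 3 genes of the same ATP synthase subunit c differed by -0.14 ± 0.05 (Atp5g1), -0.13 ± 0.04 (Atp5g2) and -0.02 ± 0.05 (Atp5g3). The CCH arrays lay below control for the first 2, by a narrow gap for Atp5g1. For Atp5g3 the groups overlapped, at 6.55, 6.66, 6.62 and 6.65 in control and 6.58, 6.59, 6.61 and 6.63 in CCH.

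Most members are bright, and bright genes as a whole were lower in SAM/P-8 on CCH. The median member stood at the 96.0th percentile of mean level, and 50 of the 82 fell in the brightest of 20 classes of equal size. The median CCH effect in SAM/P-8 over non-member genes went from 0.05 in the dimmest class to -0.01 in the tenth and -0.09 in the brightest. At the brightness of the members it was -0.09, against -0.13 for the members and -0.02 for all genes. Of the 82 members, 68 lay below the median of their own class. Had members behaved like other genes of their classes, 64.1 would have been below 0 and 0.542 would have been called, where 80 and 6 were found. With 100 classes, chosen after the data were seen, 69 members lay below their class.

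**Figure D2:**
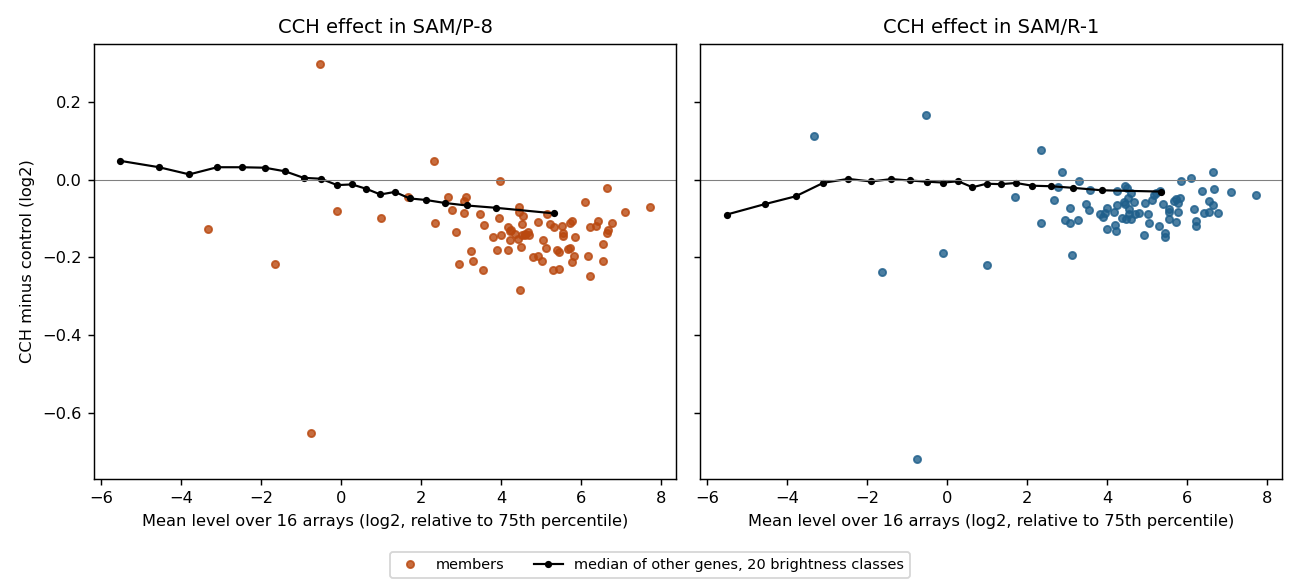
The CCH effect (log2, CCH minus control) against the mean level over 16 arrays (log2, relative to the 75th percentile of the array) in SAM/P-8 and in SAM/R-1. Coloured points are 81 of the 82 tested members and the black line joins the medians of the other genes in 20 brightness classes. At the bright end the line stands at -0.09 in SAM/P-8 and at -0.03 in SAM/R-1, and most members lie below it.

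The calls in SAM/P-8 depended on how arrays were scaled. With normexp background correction, quantile normalization or cyclic loess, no member passed in limma, while the median of the members stayed below 0 at -0.15, -0.05 and -0.05. The difference was then below 0 for 80, 69 and 64 of the 82 members. Over all genes these settings called 0, 51 and 102, against 106 with the percentile scaling, so that with normexp no gene of any kind passed. Across the 16 fits that each left out 1 array, Ndufa2 and Ndufa5 were called in 16, Cox4i1 in 10, and Ndufa3, Ndufa4 and Uqcr11 in 3 each. The count was 2 to 4 without any one array, except 13 without SAM/P-8 control replicate 1 and 8 without SAM/R-1 CCH replicate 2, which enters only the estimate of spread. Without SAM/P-8 CCH replicate 4, the array with striatum markers, 3 members were called and the median was -0.13. Without SAM/P-8 control replicate 2, the array on which the members stood highest, 2 were called and the median was -0.11. Without both, a choice made after the data were seen, 1 was called (Ndufa2) and the median was -0.10.

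In SAM/R-1 most members also lay below 0 on CCH and none passed. The difference was below 0 for 75 of 82 members (56% of all genes), with a median of -0.07, a change of -4.99%. Whether this median was nearer to 0 than that of SAM/P-8 depended on the scaling, at -0.14 against -0.15 with normexp, -0.043 against -0.054 with quantile normalization and -0.048 against -0.047 with cyclic loess. In limma 0 members were called, against 0.104% of all genes, and 0 were called under each other setting tried. Unadjusted p was under 0.05 for 18 members, or 22.0%, against 11.2% of all genes. The CCH arrays lay below all control arrays for 16 members, or 19.5%, against 5.66%.

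The smallest p in SAM/R-1 belonged to Uqcr11. Its levels were 5.53, 5.63, 5.61 and 5.60 in SAM/R-1 control and 5.48, 5.44, 5.41 and 5.45 in SAM/R-1 CCH. All 4 CCH arrays were lower, and the difference was -0.15 ± 0.04 (adjusted p = 0.181). Next came Ndufs8, an iron-sulfur subunit of complex I, at -0.22 ± 0.06 (0.23), and Atp5g2 at -0.13 ± 0.04 (0.264). Ndufs8 levels were 1.13, 1.12, 1.03 and 1.23 in control and 0.96, 0.93, 0.86 and 0.88 in CCH, without overlap. Ndufa2 differed by -0.10 ± 0.04 and Ndufa5 by -0.12 ± 0.04 in this line. At the members' brightness the median of other genes was -0.03, and 67 of 82 members lay below their class. Cox8b (-0.72 ± 0.71) and Cox6a2 (0.17 ± 0.11) were the lowest and the highest, as in SAM/P-8.

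In all, 10 members, or 12.2%, lay below all control arrays in both lines, against 0.958% of all genes: Atp5g1, Atp5g2, Atp5k, Cox4i1, Cox8a, Ndufa13, Ndufa2, Ndufa5, Uqcr10 and Uqcr11. These comparisons share no arrays. For 75 members, or 91.5%, the difference was below 0 in both lines (40.7% of all genes), for 2 it was above 0 in both (Cox6a2 and Sdha), and for 5 the signs were opposite.

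Averaged over the lines, 15 members fell, or 18.3%, and none rose (all genes: 4.16% in either direction, 2.58% lower, 1.58% higher). Unadjusted p was under 0.05 for 56 members, or 68.3% (all genes 24.3%), and 80 were below 0 (58% of all genes). Of the 15, 7 were of complex I (Ndufa2, Ndufa3, Ndufa4, Ndufa5, Ndufb2, Ndufb7 and Ndufb11), 2 of complex III (Uqcr10 and Uqcr11), 3 of complex IV (Cox4i1, Cox7a2 and Cox8a) and 3 of ATP synthase (Atp5e, Atp5g2 and Atp5k). The differences ran from -0.19 ± 0.03 for Ndufa2 (adjusted p = 0.0091) and -0.18 ± 0.03 for Ndufa5 (0.00822) to -0.11 ± 0.03 for Cox8a (0.0431). Uqcr11 fell by 0.17 ± 0.03 (0.0102) and Uqcr10 by 0.18 ± 0.04 (0.0214). Among genes of equal brightness fewer than 4 calls would be found. In the same averaged comparison 8 of 82 cytoplasmic ribosomal protein genes were called lower and 1 higher, with 79 below 0. Of 78 mitochondrial ribosomal protein genes 11 were called lower and 0 higher, with 73 below 0. Of 38 proteasome subunits 2 were called lower and 0 higher, with 36 below 0. Ndufa2, Ndufa5, Uqcr10, Uqcr11 and Cox4i1 were called in all 16 fits that left out 1 array.
The count was 6 to 8 without SAM/P-8 CCH replicate 1 or 3, SAM/P-8 control replicate 2 or 3, SAM/R-1 CCH replicate 1, 3 or 4, or SAM/R-1 control replicate 2 or 3, and 29 without SAM/P-8 control replicate 1. Without SAM/P-8 CCH replicate 4 it was 13, of which 11 were among the 15, and the median was -0.10. It was 2 with normexp (Uqcr10 and Cox7a2), 2 with quantile normalization (Ndufa2 and Ndufa3) and 3 with cyclic loess (Ndufa2, Ndufa3 and Ndufa5). Over all 13459 genes these settings called 62, 479 and 566, against 560 with the percentile scaling. The share of members called was above that of all genes with normexp, and below it with quantile normalization and cyclic loess.

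The diet effect was not shown to differ between the lines. In the test of the difference itself (the strain by diet interaction in limma) 0 members were called, against 0.134% of all genes. Unadjusted p was under 0.05 for 5 members, or 6.10%, against 4.8% of all genes, and 0 were called under each other setting. The difference of effects was below 0 for 69 of 82 members (53.7% of all genes), with a median of -0.06, as for genes of equal brightness. The smallest p belonged to Ndufa2 (-0.18 ± 0.06, adjusted p = 0.665), Cox7a2l, a factor that joins complexes III and IV (-0.21 ± 0.07, 0.67), and Cox7b (-0.15 ± 0.06, 0.852). For Cox7a2l the levels in SAM/P-8 were 3.30, 3.46, 3.42 and 3.39 in control and 3.18, 3.23, 3.22 and 3.10 in CCH. In SAM/R-1 they were 3.33, 3.31, 3.28 and 3.28 in control and 3.20, 3.37, 3.33 and 3.31 in CCH. Only the SAM/P-8 groups were apart.

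**Figure D3:**
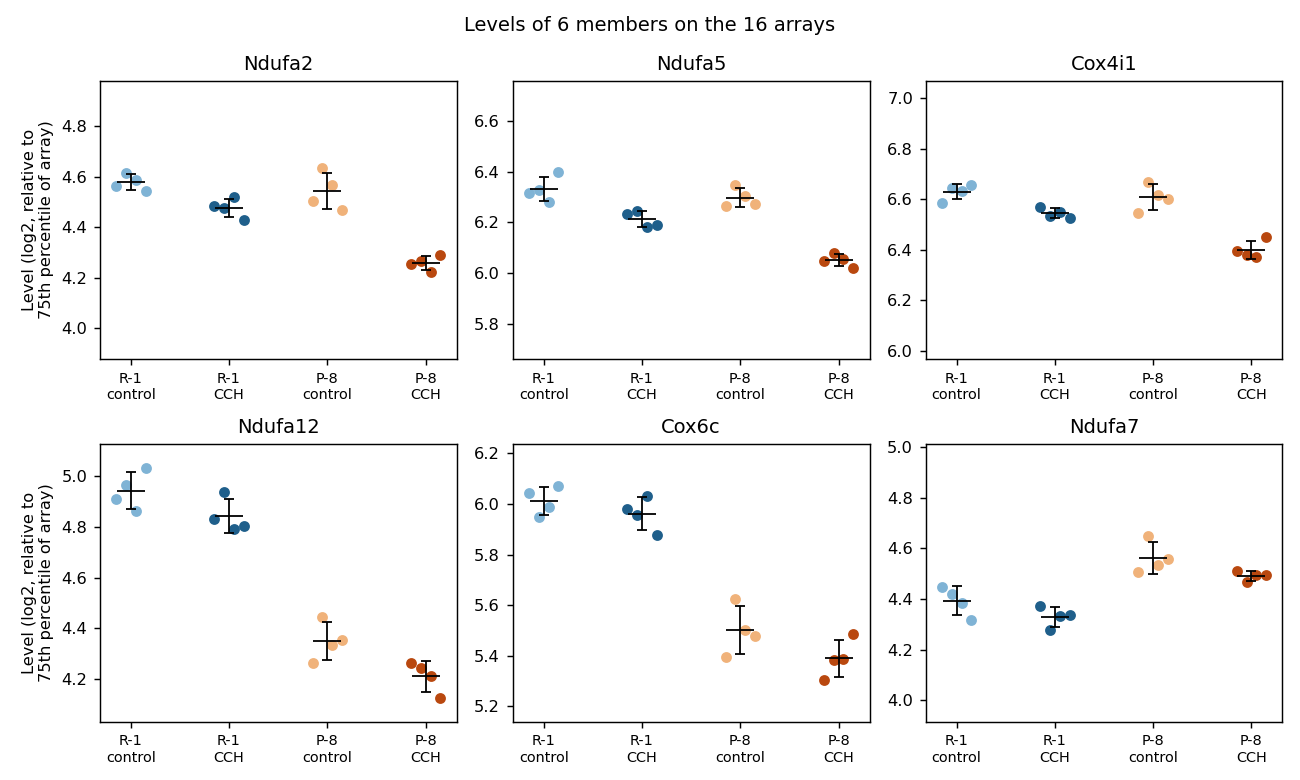
Levels (log2, relative to the 75th percentile of the array) of 6 members on the 16 arrays, with each group's mean and SD (n = 4), all panels spanning the same range. Ndufa2, Ndufa5 and Cox4i1 are lowest in SAM/P-8 CCH, Ndufa12 and Cox6c are lower in both SAM/P-8 groups than in both SAM/R-1 groups, while for Ndufa7 the SAM/P-8 arrays lie above those of SAM/R-1 on each diet.

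Between the lines on the control diet, the members as a whole did not stand apart, and a few single genes did. The median difference (SAM/P-8 minus SAM/R-1) was -0.02, against -0.02 for genes of equal brightness, and 48 members were below 0 (52.8% of all genes). In limma 10 members were called, or 12.2%, against 12.8% of all genes. Of these 8 were lower in SAM/P-8 (9.76%, all genes 6.66%) and 2 were higher (2.44%, all genes 6.17%). Unadjusted p was under 0.05 for 19 members (all genes 26.4%). The SAM/P-8 arrays lay below all SAM/R-1 arrays for 14 members (all genes 10.2%) and above them for 4 (all genes 8.72%). The share called among members was near that of all genes. At equal brightness 5.64 calls would be found, where 10 were found.

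Cox6c, a small membrane subunit of cytochrome c oxidase, showed one of the clearest differences. Its levels were 6.04, 5.95, 5.99 and 6.07 in SAM/R-1 control and 5.40, 5.62, 5.50 and 5.48 in SAM/P-8 control. On CCH they were 5.98, 5.96, 6.03 and 5.88 in SAM/R-1 and 5.30, 5.38, 5.39 and 5.48 in SAM/P-8. All 8 SAM/P-8 arrays lay below all 8 SAM/R-1 arrays. The difference was -0.51 ± 0.06 on the control diet (-29.9%, adjusted p = 1.89e-05) and -0.57 ± 0.06 on CCH (-32.7%, 6.17e-06).

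Ndufa12, an accessory subunit of complex I, had the largest called difference among the brightest probes of the members, but was called on only 1 of its 3 probes. On its brightest probe the levels were 4.91, 4.96, 4.86 and 5.04 in SAM/R-1 control and 4.26, 4.44, 4.33 and 4.35 in SAM/P-8 control, and the difference was -0.60 ± 0.06 (adjusted p = 2.36e-06). On CCH it was -0.63 ± 0.06 (1.22e-06). The other probes differed by -0.01 and 0.14 on the control diet and by 0.03 and 0.12 on CCH, none of them called. With the mean of the 3 probes the differences were -0.15 and -0.16 and no longer passed. Why the probes disagree was not tested.

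Ndufa12 and Cox6c were called on both diets in all 16 fits that left out 1 array, and with normexp, quantile normalization and cyclic loess. Other members called on both diets, in the same direction on each, included Ndufa13 (-0.14 and -0.16), also known as GRIM-19, Atp5k (-0.13 and -0.14), Uqcr11 (-0.13 and -0.16), and Ndufa7, which was higher in SAM/P-8. On the control diet Ndufa7 was called in 13 of the 16 fits that left out 1 array, Ndufa13 in 9, Atp5k in 3 and Uqcr11 in 2. There Ndufa7 was lost with normexp, while Ndufa13, Atp5k and Uqcr11 were lost with normexp, quantile normalization and cyclic loess. Atp5k and Uqcr11 were lost as well without the filter on dim probes. The 2 strain comparisons share no arrays.

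Ndufa7, an accessory subunit of the matrix arm of complex I, had levels of 4.45, 4.42, 4.39 and 4.32 in SAM/R-1 control and 4.51, 4.65, 4.53 and 4.56 in SAM/P-8 control. On CCH the levels were 4.37, 4.28, 4.33 and 4.34 in SAM/R-1 and 4.51, 4.47, 4.49 and 4.49 in SAM/P-8. The groups did not overlap on either diet. It was higher in SAM/P-8 by 0.17 ± 0.04 (adjusted p = 0.0206) and by 0.16 ± 0.04 (0.0277). The second probe of Ndufa7 was higher by 0.17 and 0.12 and was not called on either diet (adjusted p = 0.102 and 0.273 in limma). On CCH the call was lost with normexp, with the replicate number as a block and with the mean of its probes.

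Cox7c and Ndufb2 were called lower in SAM/P-8 on the control diet and were not called on CCH. Cox7c, a small subunit of cytochrome c oxidase, differed by -0.21 ± 0.06 (adjusted p = 0.044), against -0.06 ± 0.06 on CCH. Ndufb2, of the membrane arm of complex I, differed by -0.16 ± 0.05 (0.0337), against -0.12 ± 0.05. For Cox7c the levels were 3.28, 3.28, 3.25 and 3.29 in SAM/R-1 control, a tight group, and 2.92, 3.21, 3.02 and 3.11 in SAM/P-8 control. Cox7c was called in 3 of the 16 fits that left out 1 array and was lost with normexp and without the filter on dim probes. Ndufb2 was called in 11 and was lost with normexp, cyclic loess and no filter on dim probes. The interaction term did not pass for either (adjusted p = 0.947 for Cox7c, and higher for Ndufb2). Ndufv3, a small subunit beside the NADH-binding site, was called higher by 0.20 ± 0.06 (0.0282) on its brightest probe although the groups overlapped. Its other probes gave the opposite sign, at -0.98 and -0.75 on the control diet and -0.84 and -0.68 on CCH, with both called on both diets, and with the mean of its probes it was called lower on each diet, so its direction cannot be given. Sdha was called on its second probe on CCH (0.21 higher in SAM/P-8, adjusted p = 0.0167) and not on its first (0.04 ± 0.07). The endothelial and pericyte markers that were also higher in SAM/P-8 are given above, and their part was not tested.

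**Figure D4:**
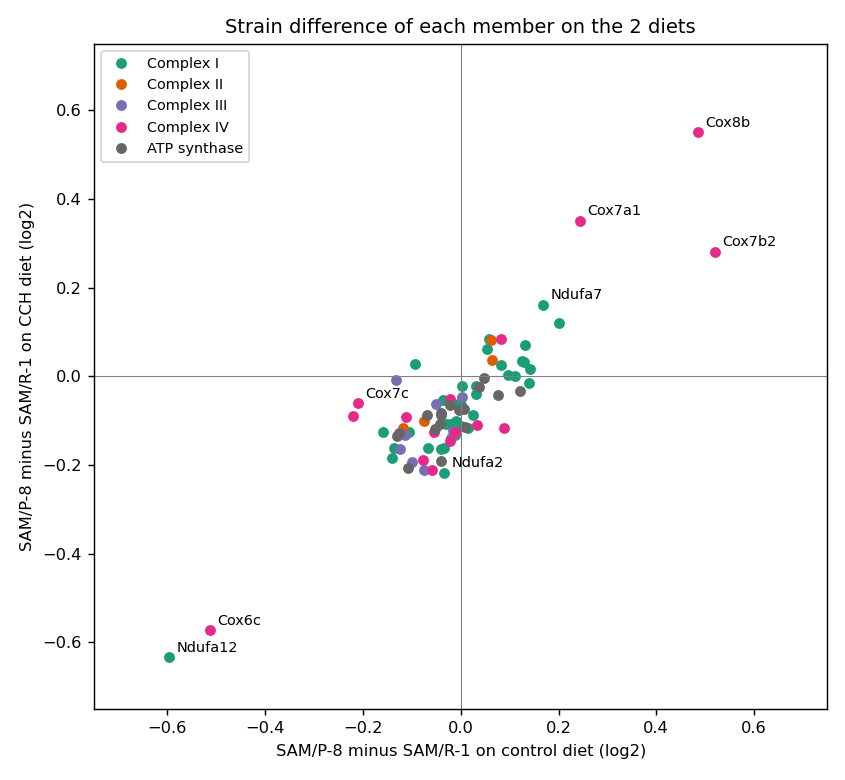
The strain difference (log2, SAM/P-8 minus SAM/R-1) of 81 of the 82 tested members on the control diet (x axis) and the CCH diet (y axis), coloured by complex. Ndufa12 and Cox6c stand apart at the lower left, and Cox8b, Cox7a1 and Cox7b2 at the upper right were not called on either diet.

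On the CCH diet more members were lower in SAM/P-8. In limma 18 were called, or 22.0%, against 12.7% of all genes. Of these 17 were lower (20.7%, all genes 6.52%), and Ndufa7 alone was higher (1.22%, all genes 6.13%). The SAM/P-8 arrays lay below all SAM/R-1 arrays for 35 members, or 42.7%, against 12% of all genes, and above them for 2, against 8.63%. Unadjusted p was under 0.05 for 36, or 43.9%, against 27.3%. The median was -0.09, a change of -5.91%, with 64 of 82 below 0 (55.3% of all genes). At equal brightness the median was -0.08 with 63.1 expected below 0 and 8.81 called, and 45 of 82 members lay below their class.

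The calls on CCH covered complexes I, III, IV and V: 8 lower and 1 higher of complex I, 2 lower of complex III, 4 of complex IV and 3 of ATP synthase. Ndufa2 differed by -0.22 ± 0.04 (adjusted p = 0.00407). Cox7b, a small subunit of cytochrome c oxidase, differed by -0.21 ± 0.05 (0.00614), with levels of 4.57, 4.61, 4.54 and 4.48 in SAM/R-1 CCH and 4.34, 4.34, 4.38 and 4.30 in SAM/P-8 CCH. Atp5d, in the central stalk of ATP synthase, differed by -0.21 ± 0.05 (0.0159), with levels of 4.18, 4.28, 4.16 and 4.17 in SAM/R-1 CCH and 4.08, 3.94, 4.06 and 3.89 in SAM/P-8 CCH. In both genes the lines did not overlap. Cox8a (-0.19 ± 0.04, 0.0053), Uqcr10 (-0.19 ± 0.05, 0.0233), Atp5o (-0.19 ± 0.05, 0.0247) and Ndufb7 (-0.18 ± 0.05, 0.0248) were also lower. In complex II the smallest p was that of Sdhc (-0.12 ± 0.05, 0.15), and no member of that complex passed.
The count was 3 with normexp, 7 with quantile normalization and 5 with cyclic loess, where the median went to -0.030, -0.013 and -0.0032. Over all 13459 genes these settings called 409, 1665 and 1670, against 1703 with the percentile scaling. With quantile normalization and cyclic loess the share of members called was below that of all genes. The member count was 12 to 19 with 1 array left out. Without SAM/P-8 CCH replicate 4 it was 15, with a median of -0.09; Uqcr10, Atp5o, Atp5k and Ndufv1 were lost and Sdhc was gained. On the control diet the count was 3 without SAM/R-1 control replicate 3, 4 without SAM/P-8 control replicate 3 or 4, 5 without SAM/R-1 control replicate 2 and 7 to 10 without any other array.

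Averaged over the members, each array gave a mean centred level. It was -0.02, 0.15, 0.05 and -0.00 in SAM/P-8 control and -0.08, -0.07, -0.12 and -0.10 in SAM/P-8 CCH. It was 0.08, 0.08, 0.02 and 0.07 in SAM/R-1 control and 0.01, 0.02, -0.05 and -0.03 in SAM/R-1 CCH. The SAM/P-8 CCH arrays were the 4 lowest of all, while the diets overlapped by a hair in SAM/R-1. Without Cox8b, the most variable member, the SAM/P-8 CCH arrays were still the 4 lowest. The overlap in SAM/R-1 was then wider, with CCH replicate 2 at 0.035 and control replicate 3 at 0.015. SAM/P-8 control replicate 2 was the highest array, with 1 of 82 members below its group mean, and replicate 1 of that group had 75 of 82 below it. By complex, the SAM/P-8 CCH mean was -0.09 ± 0.01 (SD, n = 4) for complex I, -0.04 ± 0.02 for complex II, -0.12 ± 0.02 for complex III, -0.08 ± 0.10 for complex IV and -0.10 ± 0.02 for ATP synthase. The matching SAM/P-8 control means were 0.05 ± 0.07, 0.02 ± 0.09, 0.02 ± 0.06, 0.07 ± 0.15 and 0.04 ± 0.07.

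**Figure D5:**
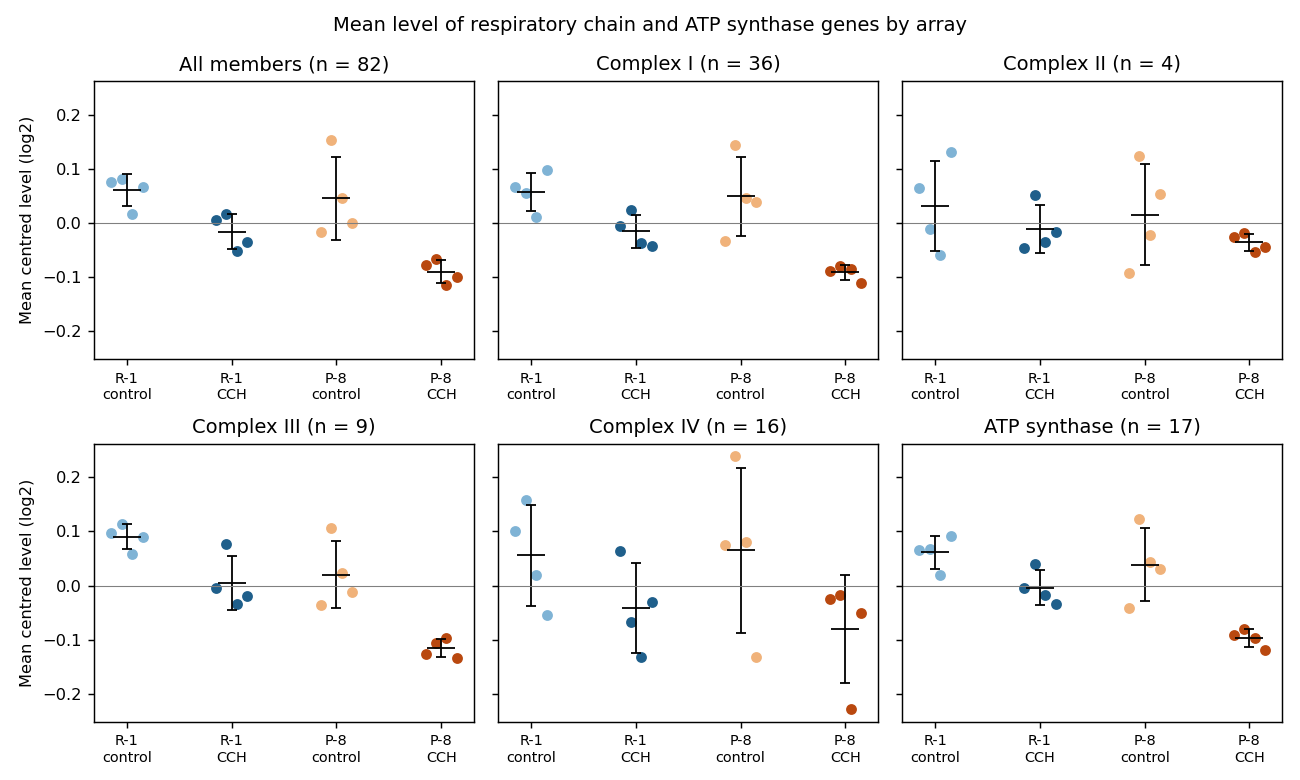
Mean centred level (log2, each member minus its mean over the 16 arrays, averaged over members) on each array, for all 82 members and by complex, with each group's mean and SD (n = 4). The 4 SAM/P-8 CCH arrays lie between -0.12 and -0.07 for all members, below every array of the other groups, and complex IV spreads widest.

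Members moved together within groups. After each group's mean was removed, a member's correlation with the mean of the other members over the 16 arrays had a median of 0.54, with 46 of 82 above 0.5 and 1 below 0. The medians were 0.58 in complex I, 0.44 in complex II, 0.46 in complex III, 0.45 in complex IV and 0.71 in ATP synthase. Ndufa3 (0.87), Ndufb11 (0.86) and Ndufa13 (0.84) followed the others most closely. Atp5k (0.09) and Cox6a2 (-0.12) followed them least. These values share arrays, scaling and brightness and are given as a description. They were not computed for other genes, so joint movement is not shown to be particular to the members. In SAM/P-8 control the mean centred level of other genes in the brightest class ranged from -0.07 to 0.06, against -0.02 to 0.15 for the members.

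Complex IV held the most variable members, and Cox8b, the muscle form of subunit VIII, was the widest. Its levels were 0.26, 0.91, 0.27 and -2.10 in SAM/P-8 control and -0.16, -0.19, -2.46 and -0.46 in SAM/P-8 CCH. They were -0.15, 0.16, -0.62 and -1.98 in SAM/R-1 control and -0.17, -2.24, -2.12 and -0.95 in SAM/R-1 CCH. On 5 arrays it was low, at -2.46 to -1.98, and on the other 11 it was at -0.95 to 0.91. The same 5 arrays had the low choroid plexus marker levels, at -3.02 to -1.25, against 0.30 to 1.70 on the other 11. The part of choroid plexus RNA in Cox8b was not tested. Cox8b differed by -0.65 ± 0.71 in SAM/P-8 and -0.72 ± 0.71 in SAM/R-1 on CCH, neither called. The ubiquitous Cox8a varied far less, from 6.30 to 6.64. Cox7a1, the muscle form of subunit VIIa, was also lowest on those 5 arrays, at -0.78 to -0.35 against -0.20 or more elsewhere.

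Beyond the subunits, the medians of other mitochondrial and metabolic lists in SAM/P-8 on CCH lay between -0.11 and 0.01, against -0.13 for the members. Of 43 assembly factors tested, 0 were called in limma and 9 had an unadjusted p under 0.05, with a median of -0.07. Of 16 genes for cytochrome c and coenzyme Q synthesis 0 were called (6 unadjusted, median -0.06), and of 23 of the citric acid cycle 0 (5 unadjusted, median -0.05). Suclg2, a subunit of succinyl-CoA ligase, lay the other way at 0.38 ± 0.09 (adjusted p = 0.0595). Among 26 carriers, channels and import factors 1 was called, Tomm6 of the outer membrane translocase (-0.23 ± 0.05, adjusted p = 0.0356), with a median of -0.08.

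Among 20 regulators of respiratory genes, such as the factors that drive their transcription, 0 were called (3 unadjusted) and the median was 0.01. Of 16 glycolysis genes 0 were called (6 unadjusted, median -0.10), with Gapdh at -0.19 ± 0.06 (adjusted p = 0.132). The 82 cytoplasmic ribosomal protein genes had a median of -0.14, with 77 below 0, 51 at an unadjusted p under 0.05 and 3 called lower. Among the 82 members 80 were below 0, 51 had an unadjusted p under 0.05 and 6 were called lower. The 78 mitochondrial ribosomal protein genes had a median of -0.11, with 72 below 0, 34 unadjusted and 2 called lower. The 38 proteasome subunits had a median of -0.09 with 0 called (9 unadjusted). Of these lists, that of the cytoplasmic ribosomal proteins had a median as low as the members' own, and no test set any list against the respiratory subunits.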

How the data were processed

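Hippocampal RNA was labelled with Cy3 and hybridised to 16 Agilent 1-colour arrays, 4 in each of 4 groups. The authors deposited scanner files made with Agilent Feature Extraction 9.5.3.1, per the file headers, and the gProcessedSignal intensity is background-subtracted per the file headers. Median spot and background intensity and the flags (other values) come from the same deposited files. The authors also deposited a table of log2 values, with column medians of -0.0381 to 0.0366; it follows the probe-centred log2 scanner values in the same direction (r of 0.9999 across probes on each array), its exact scaling stays unknown, and it served as an alternative.

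Spots flagged as outliers and control spots were left out, spots of a probe were averaged, and log2 intensity minus the array's 75th percentile was used. Kept were probes whose signal cleared background on every array of 1 group or more (29009 of 41174). RefSeq names (GRCm38.p6) matched 24844 probes, and a gene is its brightest kept probe. limma 3.58.1 in R 4.3.3 fitted 4 group means over 16 arrays (12 residual and 2.32 prior degrees of freedom). The number of arrays limits the precision. Tested on simulated data for the CCH effect in SAM/P-8 (28943 probes), changes of 0.25, 0.5, 1 and 2 log2 units were recovered in 20%, 66%, 92% and 96%, with 8 false calls.

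The members and lists were chosen with earlier results of these data known. Members were named where called without overlap (up to 10 per comparison) or, with fewer than 3 such, by the 3 smallest p, by the smallest p in each complex, as tissue isoforms, or for disagreeing probes; further members were named after their values were seen. Alternatives covered background correction, scaling, filters, probe averaging, the authors' table, the replicate number as a block and leaving out each array. The values of 1 member, which stays in the counts and medians, are not reported here.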

Additional observations from a re-analysis of the deposited data

Results flagged for a closer look

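In 116 groups of 4 arrays (the named members and the complex means), the highest or lowest array was set against the others, and 5 stood far from the rest. Chance alone flags about 1 in 20 groups, so this number is no more than chance gives. On SAM/P-8 CCH replicate 3 the mean centred level of complex IV was -0.23, while the rest of that group lay between -0.05 and -0.02. Cox8b was at -2.46 on that array, and without Cox8b the complex IV value was -0.13, against -0.07 to -0.05. Cox7b stood at 4.58 on SAM/P-8 control replicate 2, against 4.49 to 4.50. Cox8a stood at 6.30 on SAM/P-8 CCH replicate 4, the array with striatum markers, against 6.41 to 6.42. Cox7a2 stood at 5.44 on SAM/R-1 control replicate 1, against 5.38 to 5.39. Ndufb11 stood at 5.80 on SAM/R-1 CCH replicate 2, against 5.75 on each of the others.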

How the results depend on the processing

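Of the results tracked for single genes, Ndufv3 alone changed direction: with the mean of its probes the strain difference was -0.51 on the control diet and -0.47 on CCH, called on both. Some medians near 0 also changed sign. Over the settings other than left-out arrays, named results kept their side of the threshold in 321 cases, lost it in 98 and gained it in 2; with 1 array left out they kept it in 633, lost it in 164 and gained it in 2. With normexp, 480 (strain on control), 409 (strain on CCH), 0 (CCH in SAM/P-8) and 62 (averaged) of all genes were called. Of the members, 3 were called for the strain difference on each diet, 0 for CCH in SAM/P-8 and 2 for the averaged CCH effect. The medians were then -0.030 (strain on CCH), -0.14 (CCH in SAM/R-1) and -0.016 (interaction). With quantile normalization the counts were 7 (strain on CCH), 0 (CCH in SAM/P-8) and 2 (averaged), and the medians -0.013, -0.054 and -0.047, with -0.0089 for the interaction. With cyclic loess they were 5, 0 and 3, and the medians -0.0032, -0.047 and -0.045, with 0.0026 for the interaction. Over all genes the counts were 1665, 51 and 479 with quantile normalization and 1670, 102 and 566 with cyclic loess. Without the filter on dim probes 6 members were called for the strain on the control diet and 2 for CCH in SAM/P-8. Of all 17178 genes, 1573 and 60 were called there. The cause of these shifts was not tested.

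The replicate number is the slide position on 16 of 16 arrays. Deviations of the 24 same-numbered pairs correlated between -0.25 and 0.30, 6 of them above 0.1. Pairs of other numbers from different groups correlated between -0.34 and 0.37, and 3 of 16 arrays correlated best with their own number. These values show no clear pairing by number, but they cannot exclude one. With the replicate block 2 members were called for CCH in SAM/P-8, 10 for the averaged effect, and 15 and 8 for the strain on CCH and control, where Cox7c, Atp5k and Uqcr11 were lost. Leaving out 1 array at a time gave 2 to 13 calls (median -0.16 to -0.11) for CCH in SAM/P-8, 0 to 0 (-0.09 to -0.06) in SAM/R-1, 6 to 29 (-0.12 to -0.09) averaged, 3 to 10 (-0.05 to 0.01) and 12 to 19 (-0.10 to -0.07) for the strain on control and CCH, and 0 to 0 (-0.09 to -0.03) for the interaction. The slide as a block was not run, since each slide holds 1 group. With 4 arrays a group, changes near 0.25 are often missed.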
